A study of Mus musculus with 2 samples.

Results

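The subunits of oxidative phosphorylation, the respiratory chain complexes I to IV and the ATP synthase (complex V), were compared between the telencephalon and the whole body of mouse fetuses. Their genes were taken by symbol from the gene table, as Nduf, Sdh, Uqcr, Cyc1, Cox and Atp5 names and the mt- names of mitochondrially encoded mRNAs. The pattern found 96 of 43437 genes, 83 nuclear and 13 mitochondrial. Of these, 89 reached 1 FPKM in either library and are called measured. FPKM is the number of fragments scaled to the length of the transcript and to all mapped fragments. The 7 others, all listed at 0 in both libraries, were the 5 mitochondrial genes mt-Co2, mt-Co3, mt-Atp6, mt-Nd3 and mt-Nd4l and the nuclear genes Cox7b2 and Cox8c. Of the 81 measured nuclear genes, Atp5s and Atp5sl encode associated factors and are given apart, which left 79 nuclear subunits. Ndufa4 was counted with complex IV, to which its protein belongs. Cox4i1, the common form of subunit 4, is not analysed here.

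Both groups were untreated wild-type fetuses of the ICR strain, an outbred stock, at E12.5, and each group was 1 library of total RNA, made with a kit that selects polyadenylated RNA. The labels give neither the number nor the sex of the fetuses, nor whether the whole body contained the head. Steps in the low values put the depth at about 29100000 fragments for whole body and 22500000 for telencephalon. Of 8 forebrain markers 7 were at least 2-fold higher in telencephalon, while all 10 liver markers and 6 of 9 erythroid markers were at least 2-fold lower. Of all measured genes 9.39% were 2-fold higher and 21.2% 2-fold lower, all on the log2(FPKM + 1) scale. Some liver and erythroid markers reached 1 FPKM in whole body alone, so that a lower value follows from the filter. The erythroid markers still summed to 2627 FPKM in telencephalon, against 4713 in whole body. With 1 library per group no difference has a replicate check, no test was made, and every value describes these libraries. In bulk tissue, fewer cells of a type and less RNA per cell cannot be told apart.

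In oxidative phosphorylation, complex I (NADH dehydrogenase) and complex II (succinate dehydrogenase) pass electrons to ubiquinone. Complex III (cytochrome bc1) hands them on to cytochrome c and complex IV (cytochrome c oxidase) to oxygen, and complex V makes ATP from the proton gradient. All complexes but complex II combine nuclear subunits with subunits encoded by mitochondrial DNA. Several small subunits of complex IV exist in a form found in most tissues and a form found in heart and skeletal muscle or in testis.

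Nuclear subunits stood close to their whole-body level in telencephalon, while the mitochondrial mRNAs stood lower, as did Cox6a2 and Cox6b2, tissue forms of complex IV subunits. The median log2 ratio of FPKM + 1, telencephalon over whole body, was -0.17 over the 79 nuclear subunits and -0.16 over all 14987 measured genes. The closeness of these medians depends on genes of low level. Where a level of 10 FPKM was reached in at least 1 library, they were -0.16 (72 subunits) and -0.05 (8444 genes). The nuclear subunits were spread less widely: 67 of 79 (84.8%) lay within 1.5-fold, against 51.4% of all measured genes. At least 2-fold lower were 5 of the 79, against 21.2% of all measured genes, and none was 2-fold higher, against 9.39%. At 1.5-fold on this scale, 12 were lower and none higher, against 31.6% and 17% of all measured genes. The pseudocount decides the latter count, since in FPKM itself Cox5a and Ndufb4 stood at 150.2% and 152% of the whole-body level. The sign of small ratios depends on the scaling. Of the 79, 64 were below 0 in FPKM, against 58.2% of all measured genes, but only 40 after rescaling to TPM, which moved the median of all genes by 0.14. Against that median 41 of the 79 were lower. The levels of the 79 subunits had a Pearson's r of 0.960 and a Spearman's rho of 0.973 between the libraries on the log2(FPKM + 1) scale. This runs across genes of the same 2 libraries, which are not independent replicates. The 5983 genes with at least 10 FPKM in each library, a floor not set for the subunits, had an r of 0.805 and a rho of 0.743.

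**Figure D1:**
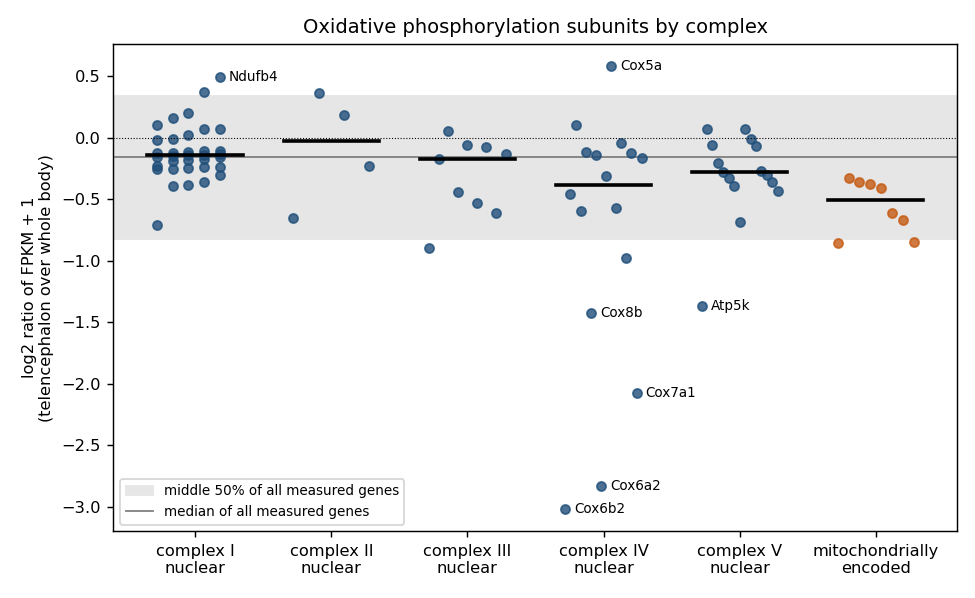
Log2 ratio of FPKM + 1 (telencephalon over whole body) of each measured subunit, by complex for nuclear genes and together for mitochondrial genes; each point is 1 gene, black bars are medians, and the grey band is the middle 50% of all measured genes. Most nuclear subunits sit near the median of all genes, 5 lie below -1, and the 8 mitochondrial genes lie between -0.85 and -0.32.

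The 35 nuclear subunits of complex I had a median log2 ratio of -0.14, and 34 of them lay within 1.5-fold on the log2(FPKM + 1) scale. Its nuclear core, the 7 subunits that bind the flavin and the iron-sulphur clusters or form the ubiquinone site, spanned -0.38 to 0.02. Ndufs1, the largest core subunit, stood at 39.9 FPKM in whole body against 32.2 in telencephalon. Ndufs7, at the ubiquinone site, stood at 146 against 136. Ndufv1, which carries the flavin, stood at 79.2 against 72.9, and its partner Ndufv2 at 61.8 against 55.7. Ndufs3 was 58.7 against 59.5, and Ndufs8 was the lowest of the core at 60.3 against 46.1 FPKM. Summed over isoforms, all 7 core genes thus kept between 76.5% and 101% of the whole-body level. The 101% is that of Ndufs3, of which isoforms not annotated as coding held 59.5% and 72.6%. Its coding transcript stood at 23.8 against 16.3 FPKM. The 28 accessory subunits had a median of -0.14 and a wider range. Ndufa3 was the most abundant in both libraries, at 294 FPKM in whole body against 329 in telencephalon. The lowest log2 ratio was that of Ndufb2, at 105 against 64.0 FPKM, the 1 complex I gene past 1.5-fold on the log2(FPKM + 1) scale, with a fragment ratio of 0.770 (0.690 to 0.859). The highest was that of Ndufb4, at 3.73 against 5.67 FPKM, on about 70 and 77 fragments. Only 63.0% of the 50-base stretches of the Ndufb4 transcript and 66.5% of those of Ndufb2 occur in no other annotated gene. Both levels are therefore uncertain.

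Complex II, whose 4 subunits are all nuclear, did not move as a block. The flavoprotein gene Sdha stood at 72.2 FPKM in whole body against 61.5 in telencephalon. The iron-sulphur subunit gene Sdhb was higher in telencephalon, at 154 against 120 FPKM, and the membrane anchor gene Sdhc stood at 58.1 against 51.0. The other anchor gene, Sdhd, was lower, at 77.5 against 122 FPKM. The ratio of depth-scaled fragments was 0.624 for Sdhd (95% exact interval 0.587 to 0.664) and 1.27 for Sdhb (1.20 to 1.33). These intervals, like all those below, cover counting error within the libraries only. All 50-base stretches of the 4 transcripts occur in no other annotated gene.

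In complex III 7 of the 9 nuclear subunits lay within 1.5-fold. The core genes Uqcrc1 and Uqcrc2 stood at 213 against 189 and at 85.8 against 78.3 FPKM (whole body against telencephalon). Cyc1, the cytochrome c1 gene, stood at 173 against 164. The small subunit gene Uqcr11 stood at 173 against 167. Uqcrfs1, the Rieske iron-sulphur protein gene, had the highest log2 ratio of the complex at 0.05, and Uqcr10 was the most abundant in whole body at 232 FPKM, against 161. Uqcrb, a small ubiquinone-binding subunit, had the lowest log2 ratio, -0.89, at 51.6 against 27.4 FPKM. Its depth-scaled fragment ratio was 0.495 (0.399 to 0.611), and 56.6% of its stretches occur in no other gene. Uqcrq, at 117 against 76.3 FPKM, was the other gene of the 9 past 1.5-fold, but its fragment ratio was 0.888 (0.804 to 0.980).

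Complex V was led by the catalytic head. Atp5b, the beta subunit with the catalytic sites, had the highest gene FPKM of the nuclear subunits in both libraries. This FPKM was nearly equal in them, at 825 in whole body against 822 in telencephalon. The depth-scaled fragment ratio was 0.940 (0.924 to 0.956). The main coding transcript of Atp5b stood at 632 against 593 FPKM, and a non-coding transcript of 600 bases at 178 against 212. Atp5a1, the alpha subunit, stood at 569 against 461. The 5 genes of the head and its central stalk (Atp5a1, Atp5b, Atp5c1, Atp5d and Atp5e) had a median log2 ratio of -0.07. They spanned -0.30 to 0.07, and the other 10 had a median of -0.34. Atp5f1, a subunit of the peripheral stalk, had the highest log2 ratio of the 15, 0.08. Only 61.3% of its 50-base stretches occur in no other annotated gene, so its level is uncertain. The 3 genes of the proton-carrying c ring encode the same mature protein. Atp5g3 held 53.0% of their summed FPKM in whole body and 52.1% in telencephalon, Atp5g1 31.1% and 29.6%, and Atp5g2 15.9% and 18.3%. No 50-base stretch of the Atp5g2 transcript and 34.0% of those of Atp5g1 occur in that gene alone, so the division among the 3 is uncertain. Of the Atp5g1 stretches 61.2% occur in the processed pseudogene Gm10039. It was listed at 181 FPKM in whole body against 225 in telencephalon, the opposite direction to Atp5g1 at 285 against 228. The level and ratio of Atp5g1 are therefore uncertain too. The lowest log2 ratio was that of Atp5k, a small membrane subunit, at 40.8 against 15.2 FPKM (-1.37). Its main transcript has 371 bases, where 1 fragment was worth 0.690 FPKM in whole body against 1.23 in telencephalon, and the fragments numbered about 68 and 30. The depth-scaled ratio of those fragments was 0.570 (0.358 to 0.888). These fragments come from both Atp5k isoforms with signal. The coding transcript of 371 bases stood at 39.2 against 11.1 FPKM, and a retained-intron transcript of 563 bases at 1.61 against 4.04. Atp5l, another small membrane subunit, stood at 76.0 against 47.0 FPKM, with 15.2% of its stretches in no other gene. The associated factors Atp5s and Atp5sl stood at 2.05 against 1.72 and at 15.8 against 12.4 FPKM.

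The 16 measured nuclear subunits of complex IV had a median log2 ratio of -0.38, the lowest of the 5 complexes. Without Cox7a1 and Cox8b, which were listed at 0 in telencephalon, it was -0.24, above the -0.28 of complex V. The 16 also had the widest range, from -3.02 to 0.58. Cox8a was the most abundant, at 714 FPKM in whole body against 695 in telencephalon. Cox5a, which sits on the matrix side, had the highest log2 ratio of all 79 subunits. It stood at 170 against 255 FPKM, on about 1597 and 1776 fragments, with a depth-scaled ratio of 1.44 (1.34 to 1.54). Only 68.0% of its stretches occur in no other annotated gene, so its level is uncertain. Its partner Cox5b stood at 34.0 against 27.2. Ndufa4 stood at 292 against 266 FPKM. Cox7b, a small membrane subunit, was lower in telencephalon, at 176 against 89.2 FPKM, with a ratio of 0.499 (0.468 to 0.531) on about 3443 and 1329 fragments. Cox7c stood at 44.7 against 29.3 FPKM and Cox6c at 184 against 123. Of their stretches 47.0% and 78.9% occur in no other annotated gene, so these levels are uncertain too.

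Forms of complex IV subunits that are known from heart, skeletal muscle or testis were among the 5 subunits listed at least 2-fold lower in telencephalon. These were Cox6a2, Cox6b2, Cox7a1 and Cox8b, beside Atp5k. Cox6a2, Cox7a1 and Cox8b passed the filter of 1 FPKM through whole body alone, so that their place in this count follows from the filter. Cox6a2, the heart and skeletal muscle form of subunit 6a (chromosome 7, 128205435 to 128206387 on GRCm38, minus strand), stood at 7.10 FPKM in whole body against 0.136 in telencephalon. This was about 74 fragments against 1, a depth-scaled ratio of 0.0175 (0.000436 to 0.10). Cox6a1, the form of most other tissues, stood at 388 against 356 FPKM. Cox6a2 thus held 1.80% of the FPKM of the pair in whole body and 0.0383% in telencephalon. Cox6b2, the testis form of subunit 6b, had the lowest log2 ratio of FPKM + 1, although Cox6a2 was lower as a ratio of FPKM or of fragments. Cox6b2 stood at 47.4 FPKM in whole body against 4.97 in telencephalon, on about 264 and 21 fragments, a ratio of 0.103 (0.0625 to 0.160). Cox6b1 stood at 399 against 357, so Cox6b2 held 10.6% and 1.37% of that pair. The intervals of both ratios lie below 0.2.

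The other muscle forms rested on too few fragments for a firm value. Cox7a1, the heart and skeletal muscle form of subunit 7a, stood at 3.22 FPKM in whole body, about 7 fragments on a transcript of 393 bases, and was listed at 0 in telencephalon. A level of up to 2.31 FPKM, worth 3 fragments, could have gone undetected there. Cox7a2 stood at 154 against 142 FPKM, and Cox7a1 held 2.05% of the FPKM of the pair in whole body. By fragments that share was 0.442% (95% exact interval 0.185% to 0.947%). Cox7a2l, a related factor that joins complexes III and IV and is counted here with complex IV by its name, stood at 68.9 against 74.4. Cox8b, the muscle form of subunit 8, had 1.68 FPKM in whole body from about 2 fragments and was listed at 0 in telencephalon, where 3 fragments would be 5.13 FPKM. A difference in Cox8b was therefore not detectable at this depth. Cox4i2, the form of subunit 4 known from lung, stood at 2.52 against 1.57 FPKM, on about 30 and 14 fragments. Its fragment ratio of 0.603 had an interval from 0.295 to 1.17.

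Markers of heart and skeletal muscle were lower in telencephalon as well. All 11 measured cardiac markers and all 11 measured skeletal muscle markers were at least 2-fold lower in telencephalon, against 21.2% of all measured genes. All but Myl4 were below 1 FPKM there and passed the filter through whole body alone. For these a lower value in telencephalon follows from the filter. The cardiac markers had summed levels of 599 FPKM in whole body against 3.67 in telencephalon, with Myl3, Myl7 and Pln at 0 there. The skeletal muscle markers summed to 356 and 2.39 FPKM, with Cav3 at 0. The part of muscle cells in the difference of the subunit forms was not tested.

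**Figure D2:**
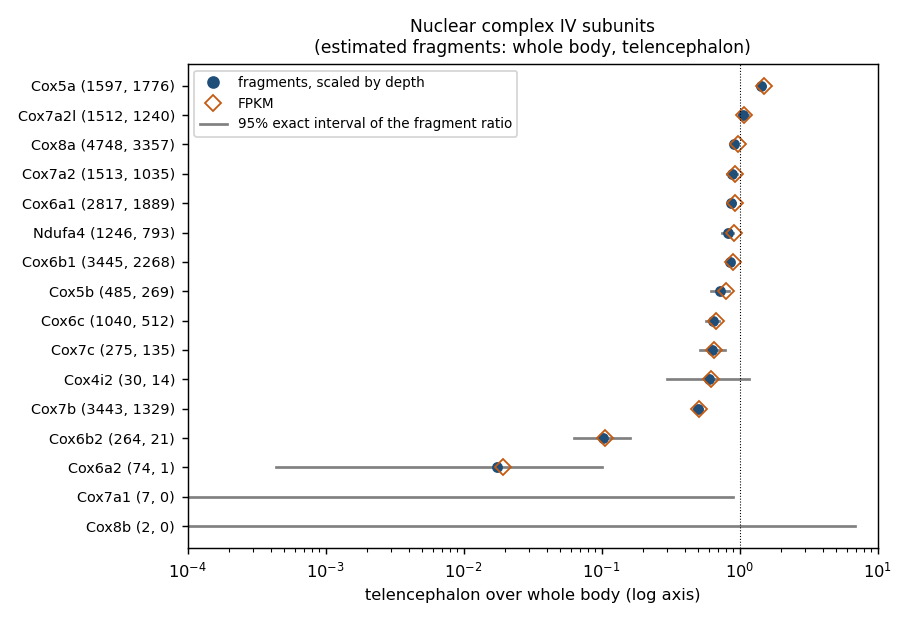
Telencephalon over whole body (log axis) for the 16 measured nuclear complex IV subunits, as the ratio of depth-scaled fragments (circles, with the 95% exact interval) and of FPKM (diamonds), with the estimated fragments of both libraries beside each name; ratios of 0 have no symbol. Cox6b2 and Cox6a2 lie at fragment ratios of 0.103 and 0.0175, and the common forms with over 100 fragments in both libraries between 0.499 (Cox7b) and 1.44 (Cox5a).

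The promoters of the paired forms show how they differ in sequence upstream of the start. RefSeq (GRCm38.p6) gave promoters for 69 of the 83 nuclear genes, and Cox6a2 has no entry. The 250 bases before the transcription start follow, 5′ to 3′, for the forms that do. Capitals mark GCATGCGC (the core of the NRF1 motif; NRF1 is a regulator of respiratory chain genes), GGGCGG (Sp1) and CCAAT, each on either strand. No ACTTCCGG (ETS) lies in them.
Cox6a1 (chr5:115348959-115349208, minus strand): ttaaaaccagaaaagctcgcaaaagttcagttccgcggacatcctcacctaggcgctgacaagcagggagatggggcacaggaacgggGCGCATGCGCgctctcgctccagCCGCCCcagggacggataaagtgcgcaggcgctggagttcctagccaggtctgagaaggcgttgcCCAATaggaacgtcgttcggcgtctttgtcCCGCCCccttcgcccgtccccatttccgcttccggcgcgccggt
Cox7a2 (chr9:79759854-79760103, minus strand): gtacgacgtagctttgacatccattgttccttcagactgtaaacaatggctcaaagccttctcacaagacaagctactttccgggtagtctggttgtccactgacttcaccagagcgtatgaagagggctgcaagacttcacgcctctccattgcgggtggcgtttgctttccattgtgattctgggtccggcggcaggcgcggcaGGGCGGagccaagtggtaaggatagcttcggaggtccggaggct
Cox7a1 (chr7:30183921-30184170, plus strand): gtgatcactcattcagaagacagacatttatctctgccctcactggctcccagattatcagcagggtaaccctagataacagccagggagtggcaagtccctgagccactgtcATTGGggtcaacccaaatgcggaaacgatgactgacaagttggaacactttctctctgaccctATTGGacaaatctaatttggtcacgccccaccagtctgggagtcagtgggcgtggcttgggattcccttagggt
Cox6b1 (chr7:30626115-30626364, minus strand): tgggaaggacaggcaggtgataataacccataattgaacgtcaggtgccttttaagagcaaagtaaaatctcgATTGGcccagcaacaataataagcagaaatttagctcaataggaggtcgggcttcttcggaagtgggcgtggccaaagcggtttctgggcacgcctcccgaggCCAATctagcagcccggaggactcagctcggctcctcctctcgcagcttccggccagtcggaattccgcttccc
Cox6b2 (chr7:4753095-4753344, minus strand): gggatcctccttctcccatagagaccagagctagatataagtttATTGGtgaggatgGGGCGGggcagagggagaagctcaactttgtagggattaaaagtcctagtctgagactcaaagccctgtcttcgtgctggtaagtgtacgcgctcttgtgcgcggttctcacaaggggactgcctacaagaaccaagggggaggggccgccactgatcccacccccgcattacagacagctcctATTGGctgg
Cox6a1 holds GCATGCGC preceded by GC, a palindrome in which the core occurs on both strands, and none of the other 4 sequences holds the core. The sequence of Cox7a1, the muscle form, has 4 CpG dinucleotides, against 14 in Cox7a2 and 26 in Cox6a1. Cox6b2 has 8, against 14 in Cox6b1. The median was 14 over the 75 promoters of the nuclear members and 6 over all 32851 promoters. In the window from 250 bases before to 50 after the start, that palindrome occurred in 6.67% of the members' promoters and 0.971% of all promoters. These were Atp5g2, Atp5k, Cox6a1, Ndufa11 and Uqcrc1. The core GCATGCGC, which the palindrome contains, occurred in 13.3% and 2.71%, ACTTCCGG in 6.67% and 3.89%, GGGCGG in 38.7% and 35.7%, and CCAAT in 42.7% and 37.4%. A match describes letters, not a bound site.

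The mitochondrially encoded mRNAs were lower in telencephalon than in whole body, each of the 8 measured. Their median log2 ratio was -0.51, which is 0.34 below the nuclear median. None was 2-fold lower and 4 were 1.5-fold lower, against 21.2% and 31.6% of all measured genes, and 58.2% of all measured genes were below 0. Together the 8 summed to 10177 FPKM in whole body against 7232 in telencephalon, or 2.03% and 1.61% of all FPKM. The 5 mitochondrial mRNAs listed at 0 add nothing to these sums, and their 0 cannot be read as a lack of mRNA. The sums therefore do not measure all mitochondrial mRNA. The 79 nuclear subunits summed to 10970 and 9796 FPKM.

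Among the complex I genes of the mitochondrial genome, mt-Nd1 stood at 1893 FPKM in whole body against 1430 in telencephalon. The values were 771 and 486 for mt-Nd2, and 649 and 519 for mt-Nd4. The lowest shares of the whole-body level were those of mt-Nd5 (994 against 550 FPKM, 55.3%) and mt-Nd6 (483 against 269, 55.6%). These 2 genes lie on opposite strands and overlap by 14 bases, and the library kit does not mark strand. mt-Cytb, the cytochrome b of complex III, had the highest FPKM of the 8 mitochondrial genes above 0, at 2112 against 1645 FPKM. mt-Co1, the catalytic subunit of complex IV, stood at 1640 against 1262, and mt-Atp8 of complex V at 1635 against 1072. mt-Nd4 kept the most, 80.0%. The mt-Atp8 transcript has 204 bases, overlaps mt-Atp6 by 43, and is shorter than the fragments, so its FPKM is uncertain.

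The 2 mitochondrial ribosomal RNAs had 56.5% (mt-Rnr1) and 66.3% (mt-Rnr2) of the whole-body FPKM. They stood at 162 against 91.6 and at 154 against 102 FPKM (whole body against telencephalon). The kit selects polyadenylated RNA, and how far these values follow the amount of ribosomal RNA was not tested. Per length, the median mitochondrial gene of complex I stood 11.2 times above the median nuclear subunit of that complex in whole body and 8.26 times in telencephalon. That median gene was mt-Nd2 in whole body and mt-Nd4, whose level is uncertain, in telencephalon. For complex III, with mt-Cytb alone, the factors were 12.2 and 10.7. For complex IV, with mt-Co1 alone, whose level is uncertain too, they were 14.7 and 15.4. The nuclear medians of complex IV were 111 FPKM in whole body and 81.8 in telencephalon. Without Cox7a1 and Cox8b, listed at 0 in telencephalon, they were 162 and 106, so these factors depend on the genes included. Complex V, with mt-Atp8 alone, whose FPKM is uncertain, had factors of 11.1 and 7.61.

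**Figure D3:**
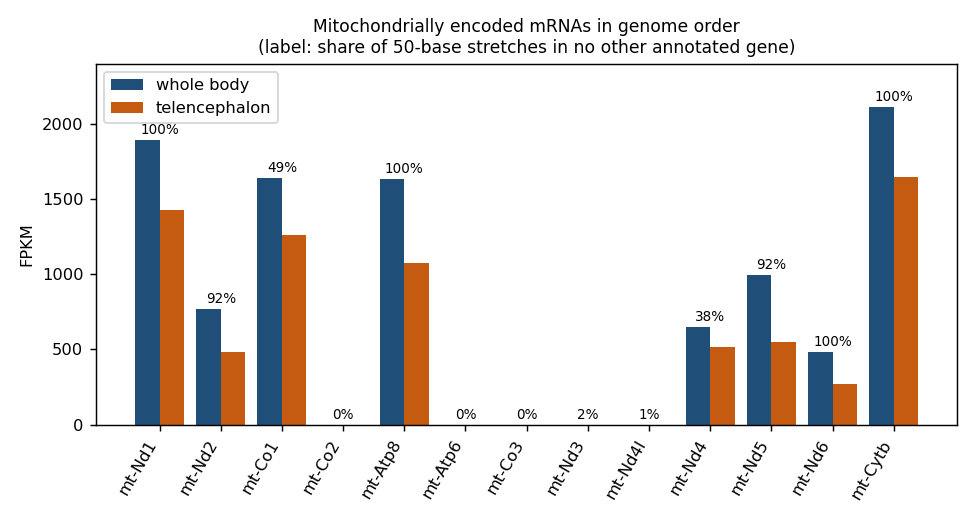
FPKM of the 13 mitochondrially encoded mRNAs in genome order in whole body and telencephalon (bars, 1 library each), with the share of each gene's 50-base stretches that occur in no other annotated gene above the bars. The 8 genes above 0 are lower in telencephalon, and the 5 genes at 0 have shares of 2% or less.

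The 5 mitochondrial genes listed at 0 share nearly all of their sequence with annotated pseudogenes on chromosome 1. Of their 50-base stretches 0% to 2.01% occur in no other annotated gene. The pseudogenes that hold the rest are Gm28661 for mt-Co2, Gm10925 for mt-Atp6, Gm28437 for mt-Co3, Gm28438 for mt-Nd3 and Gm10222 for mt-Nd4l, from 24612407 to 24615565 on GRCm38. They were listed at 0 too, except Gm28437 at 0.148 FPKM in whole body. The 2 genes at the edges of this block are covered in part: 37.8% of the stretches of mt-Nd4 and 48.9% of those of mt-Co1 occur in no other gene. A value of 0 for these genes cannot be read as a lack of their mRNA, and the levels of mt-Nd4 and mt-Co1 are uncertain. Among all members, 6 had under 3% of such stretches, and the sixth, Atp5g2, was not at 0. No source used here says how reads with several matches were treated.

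The nuclear subunits with the shortest transcripts had the lowest median ratio. Among subunits of 10 FPKM or more, the median log2 ratio was -0.25 for 28 with a main transcript under 600 bases, -0.18 for 24 of 600 to under 1000 bases, and -0.12 for 20 of 1000 bases or more. Protein-coding genes of the same level and length classes had medians of -0.12, -0.21 and -0.03. Over the 79 subunits, the log2 ratio and the length had a Spearman's rho of 0.288 and a Pearson's r of 0.204, as a description across genes of the same libraries. The fragments averaged 322 bases in whole body and 336 in telencephalon, so the length correction of short transcripts differs between the libraries. Its part in the lower ratios of short subunits was not tested.

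**Figure D4:**
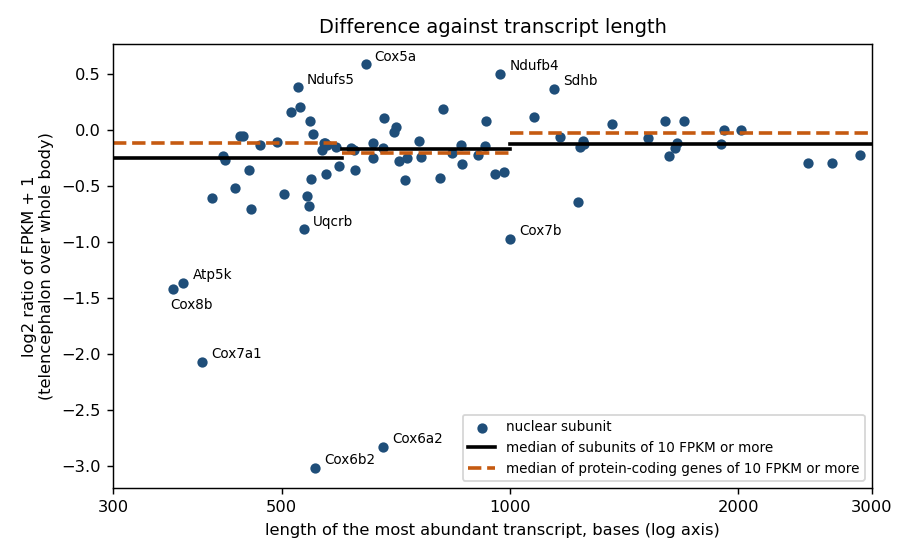
Log2 ratio of FPKM + 1 (telencephalon over whole body) against the length of the most abundant transcript (log axis) for the 79 nuclear subunits (points); black bars are medians of subunits and dashed bars medians of protein-coding genes, both of 10 FPKM or more, in 3 length classes. Subunits under 600 bases have a median of -0.25, against -0.12 at 1000 bases or more.

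Most of the subunits' signal came from coding isoforms. Of 74 nuclear members with 5 FPKM or more in both libraries, 7 had 10% or more of their FPKM in isoforms annotated as non-coding or as targets of decay in both, and 2 had 50% or more. These 2 were Ndufs3 and Ndufa5. A non-coding Ndufs3 transcript of 707 bases held 54.8% of that gene in whole body and 71.2% in telencephalon, while the coding transcript of 1046 bases stood at 23.8 and 16.3 FPKM. So the gene's nearly equal sums, given above, come from isoforms that differ in opposite directions. A non-coding Ndufa5 transcript of 453 bases held 74.2% and 78.5%. The short Uqcrq transcript of 405 bases stood at 93.6 against 50.3 FPKM, whereas its transcript of 1521 bases stood at 21.7 against 22.4. The division of reads among isoforms is an estimate with no error given.

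Genes that assemble the complexes were counted on the log2(FPKM + 1) scale, where 2-fold lower values were found for 21.2% of all measured genes and 2-fold higher ones for 9.39%. Of 13 measured assembly factors of complex I, 1 was at least 2-fold lower in telencephalon and none higher, with a median log2 ratio of -0.23. Nubpl, which delivers iron-sulphur clusters, stood at 9.42 against 4.20 FPKM (whole body against telencephalon), Ndufaf1 at 8.68 against 5.29 and Ndufaf2 at 7.44 against 11.1. Of 26 assembly factors of complexes II to IV, 1 was 2-fold lower (median -0.17). This was Cox20, a chaperone of Cox2, at 1.83 FPKM in whole body and listed at 0 in telencephalon, which passed the filter through whole body alone. Uqcc3 stood at 15.8 against 9.54 and Cox19 at 15.8 against 26.1. The 4 genes of ATP synthase assembly and inhibition had a median of -0.40, with Atpaf1 at 9.57 against 4.33, Tmem70 at 13.6 against 9.29 and the inhibitor gene Atpif1 at 139 against 127 FPKM. Among 5 measured genes of cytochrome c and of subunits that the name pattern leaves out (median -0.36), 2010107E04Rik stood at 296 against 165 FPKM. Ndufa4l2, a paralog of Ndufa4, stood at 4.91 against 3.10, and Usmg5 at 66.4 against 75.5.

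Regulators of mitochondrial biogenesis and of mitochondrial DNA expression lay on both sides of 0, with 12 of 19 measured below it (median log2 ratio -0.22). None of the 19 passed 2-fold on the log2(FPKM + 1) scale, against 21.2% lower and 9.39% higher among all measured genes. This scale shrinks differences of genes near 1 FPKM. The lowest was Ppargc1b, a coactivator, at 1.23 FPKM in whole body against 0.119 in telencephalon, followed by the mitochondrial rRNA methyltransferase gene Tfb1m at 5.83 against 2.66. Esrra, a nuclear receptor that acts on respiratory chain genes, was the highest, at 7.31 against 14.0 FPKM. Of 13 citrate cycle enzymes (median -0.24) 1 was 2-fold lower, against 21.2% of all measured genes. This was Suclg2, the GTP-forming subunit of succinyl-CoA ligase, at 17.9 against 8.12. Fh1, the fumarase gene, stood at 36.5 against 25.6 FPKM.

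**Figure D5:**
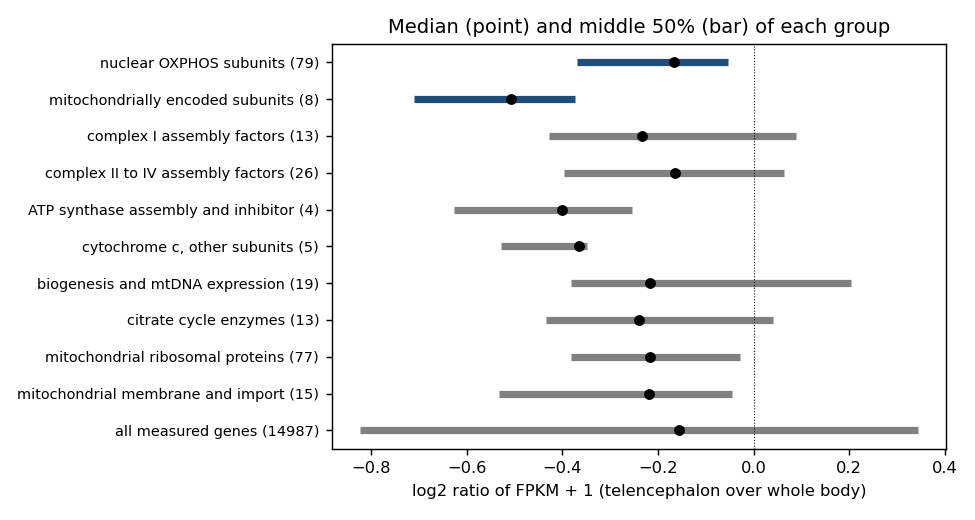
Median (point) and middle 50% (bar) of the log2 ratio of FPKM + 1, telencephalon over whole body, for the subunits, for lists of other mitochondrial genes and for all measured genes, with the number of genes in brackets. Nuclear lists have medians between -0.40 and -0.17, and the mitochondrially encoded subunits -0.51.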

How the data were processed

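RNA was measured in 1 library of whole body and 1 of telencephalon. The values are FPKM per gene and per isoform as the authors deposited them. TopHat, Cufflinks and Cuffdiff were used with GRCm38, per the submitters' processing notes. Versions and annotation release are not given in the sources used here. The members and gene lists were chosen with earlier results of these data known.

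Log2 ratios used a pseudocount of 1 FPKM, which understates differences of low genes. A gene was measured at 1 FPKM or more in either library, and genes past 2-fold were counted. No test or p-value was computed.

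Fragments were estimated from FPKM values shared by at least 2 single-isoform genes of one length. A model of the worth of 1 fragment, with a normal fragment length, was fitted to the lowest such value at 374 and 373 lengths of 350 bases or more. Of these, 73.8% and 70% lay within 3% of it. Intervals are exact 95% binomial (Clopper-Pearson), and since the libraries have no molecular identifiers they cover counting error only. At 2000 bases 1 fragment was worth 0.0205 and 0.0267 FPKM.

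Gene positions, transcripts and lengths are from GENCODE M21 (GRCm38), matched on identifiers for 42276 of 43437 genes. The 50-base stretches of each member's most abundant transcript were searched in all transcripts of other genes on both strands. Named were the mitochondrial genes, the extremes and the most abundant subunit of each complex, members past 2-fold, tissue forms, core subunits and, per list, the 2 genes farthest along the median's direction and 1 the other way. Some genes that this rule names are not reported here. Other members in the text were chosen after their values were seen. Alternatives changed the pseudocount, filter, scaling and isoforms. Added after seeing the data were fragments scaled to depth without length correction, the place of Ndufa4, and only members with 90% or more unique stretches. The counting was tested on simulated data. Python 3.11.15, pandas 2.3.3 and scipy 1.17.1 were used.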

Additional observations from a re-analysis of the deposited data

How the results depend on the processing

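The nuclear median log2 ratio was -0.10 with a common upper quartile, -0.0028 in TPM and -0.0091 with mitochondrial genes out of the scaling, so its distance from 0 depends on the scaling, while its distance from the median of all measured genes stayed between -0.12 and 0.01. In the same 3 settings the mitochondrial median was -0.44, -0.34 and -0.35, that of complex III -0.10, -0.0029 and -0.0092, and that of complex V -0.21, -0.11 and -0.12. Complex II turned to 0.042, 0.14 and 0.13, and complex I to 0.026 and 0.019 in TPM and with mitochondrial genes out. These last 2 settings cannot be read as separate checks. They moved the median of all measured genes by nearly the same amount, 0.140 in TPM and 0.146 with mitochondrial genes out. The mt- rows held only 2.09% (whole body) and 1.66% (telencephalon) of the summed signal. The sign changes in the last setting can therefore not be credited to the removal of these rows. Without length correction, in fragments scaled to depth alone, the mitochondrial median was -0.44, its distance below the nuclear median 0.22 and complex II -0.11. The members at least 2-fold lower then numbered 2 in place of 5, Cox7a1, Cox8b and Atp5k not being counted. This setting also changes the unit to which the pseudocount of 1 is added, so the cause was not tested. By fragments the shares of Cox6a2 and Cox7a1 in their pairs in whole body were 2.56% and 0.442%. Without isoforms under 300 bases, which removes mt-Atp8, the mitochondrial median was -0.40 and the distance 0.24. With only members of 90% or more unique stretches these were -0.64 and 0.46, and complexes III and IV stood at -0.30 and -0.71. A pseudocount of 0.1 FPKM, no filter on low values and counting Ndufa4 in complex I moved none of the 10 medians and counts beyond the counting interval of the middle gene or, for counts, beyond 1.5-fold. No paired analysis was possible because each group has 1 library. Depth limits the muscle forms Cox7a1 and Cox8b, and transcripts under 350 bases have no fragment estimate.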

Other observations

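Lists of other mitochondrial proteins had medians near that of the nuclear subunits. Of 77 measured mitochondrial ribosomal protein genes, which make the ribosome that translates the 13 mitochondrial mRNAs, 1 was at least 2-fold lower in telencephalon and none higher, with a median log2 ratio of -0.22. Among all measured genes 21.2% were 2-fold lower and 9.39% 2-fold higher. Mrps18b stood at 20.3 FPKM in whole body against 9.54 in telencephalon, Mrps16 at 54.6 against 28.3, and Mrpl18 at 33.4 against 44.7. Of 15 genes of mitochondrial membrane and import 2 were 2-fold lower (median -0.22). These were Phb, a scaffold of the inner membrane, at 41.2 against 18.0 FPKM, and the import gene Timm44 at 34.1 against 16.4. Tomm20, an import receptor of the outer membrane, stood at 16.5 against 19.9.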
